A study of Danio rerio with 6 samples.

Results

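miR-26a is a microRNA of vertebrates whose 5p strand is found in many tissues. Among the 134 mature microRNAs counted in zebrafish primordial germ cells, 3 carry its name: miR-26a-5p, miR-26a-3p and miR-26a-2-3p. They were taken by name, but miR-26a had been singled out because its 5p arm stood higher at later stages in these same libraries, so its levels are described here and not tested. The cells, the embryonic precursors of eggs and sperm, came from the AB strain and had been picked by green fluorescence. Each group is 1 stage of untreated embryos: shield at 6 hours post fertilization (hpf), 3-somite at 11 hpf and prim-5 at 24 hpf, with 2 libraries per stage. The labels name neither the transgene behind the fluorescence nor the embryos or cells pooled per library, and they give the tissue as gonad. No label states that repeats were collected separately, so the SD between them may be technical.

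A microRNA is cut from a hairpin precursor into a pair of strands, the 5p and the 3p arm. One of them is usually kept by an Argonaute protein and the other is degraded. The kept strand finds its target mRNAs mainly through its seed, bases 2 to 8. The genes of the miR-26 family lie within genes of the CTDSP group, small phosphatases that act on RNA polymerase II, and in mammals miR-26a represses EZH2, a histone methyltransferase. In the RefSeq table of assembly GRCz12tu, which is not the build of the deposited data, the 3 miR-26a loci of zebrafish lie within the spans of ctdsp1 (mir-26a-1), ctdsplb (mir26a-2) and ctdspla (mir26a-3), and mir-26b lies within that of ctdsp2.

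The sequences below are those of the deposited table, with the seed in capitals. They are shown because they set which reads can be told apart.

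miR-26a-5p: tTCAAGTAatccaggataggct

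miR-26b: tTCAAGTAatccaggataggtt

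miR-26a-3p: cCTATTCGggatgacttggttc

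miR-26a-2-3p: cCTATTCAtgattacttgcact

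miR-103: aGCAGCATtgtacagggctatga

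miR-22a-3p: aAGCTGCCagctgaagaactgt

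miR-26a-5p and miR-26b share their seed, which no other listed microRNA has, and differ by C21T, counting from 1 at the 5′ end with the base of miR-26a-5p first. How the authors assigned reads that fit both names is unknown here, so a read of one may have been counted as the other. The table lists miR-26a-5p once, and its reads are not divided among its 3 loci. The 3p arms differ from each other at 7 of 22 positions, among them G8A within the seed (miR-26a-3p first). miR-103 and miR-22a-3p, likewise found in many tissues, are the comparators. miR-107a-3p shares the seed of miR-103 and differs from it by G22C, but it had 1 to 3 reads in each library.

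microRNA reads numbered 35718 to 78973 per library, of which 4429 to 27293 lay outside the miR-430 family, the abundant family that clears maternal mRNAs. miR-430 thus sets the scale of any share, and the levels of miR-26a-5p are given on 4 scales. Intervals are exact 95% binomial intervals, and they and the floors for a count of 0 cover counting error only, because PCR copies are not independent molecules. Of 22 markers of other cell types, 13 had at least 1 listed arm, 15 arms in all. These arms summed to 0.699% to 0.971% of the reads outside miR-430 at 6 hpf, 0.702% to 1.20% at 11 hpf and 1.70% to 1.93% at 24 hpf. With reads at those stages were 9, 10 and 12 of the 15 arms. At 6 and 11 hpf the neural miR-124-3p, the sensory miR-182-5p and the muscle miR-499-5p were at 0, but other arms of their lists were not. The muscle arms summed to 10, 10, 21 and 17 reads in the 4 libraries of these stages, the sensory arms to 1, 2, 43 and 7, and the neural arms to 0, 1, 3 and 2. At 24 hpf the muscle arms had 59 and 99 reads, the sensory arms 175 and 323 and the neural arms 50 and 44. Of the reads outside miR-430 these were 0.335% and 0.363%, 0.994% and 1.18%, and 0.284% and 0.161%. The liver and endoderm markers miR-122, miR-192 and miR-194a were at 0 at this stage. The endothelial arms held 0.384% and 0.449% of the reads outside miR-430 at 6 hpf and 0.445% and 0.0945% at 11 hpf. At 24 hpf they held 0.0852% and 0.220%. The muscle, sensory and neural sums thus stood highest in both 24 hpf libraries. The endothelial and the liver and endoderm sums did not, so the lists had no common direction with stage. Arms of the same list differed too. On the TMM scale, described below, miR-1 was at 353 and 283 at 6 hpf and 97.4 and 204 at 24 hpf. The other muscle arms were at 0 at 6 hpf. At 24 hpf miR-206-3p was at 621 and 377, and miR-499-5p at 0 and 166. miR-124-3p had reads only in the first 24 hpf library, and miR-9-4-3p only in the second. The sum of the 15 arms overlapped between 6 and 11 hpf. That sum was higher at 24 hpf, as miR-26a-5p was. The part of the marked cell types in the levels of miR-26a-5p was not tested. The gonad microRNA miR-202 was not among the names in the table, and germ cell mRNAs were not measured, so the cell type could not be checked against markers of its own.

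miR-26a-5p had 624 and 892 reads in the 6 hpf libraries, 2168 and 1844 at 11 hpf, and 6852 and 11787 at 24 hpf. As shares of microRNA reads these were 1.75% (interval 1.61% to 1.89%) and 1.40% (1.31% to 1.49%) at 6 hpf. At 11 hpf they were 4.78% (4.59% to 4.99%) and 3.83% (3.66% to 4.0%). At 24 hpf they were 10.2% (10.02% to 10.5%) and 14.9% (14.7% to 15.2%). Both 24 hpf libraries stood above both 11 hpf libraries, and these above both 6 hpf libraries. Within each stage the intervals of the libraries did not meet, so the libraries of a stage differed by more than counting error. The means were 1.57% ± 0.25 (SD, n = 2), 4.31% ± 0.68 and 12.6% ± 3.31. The gap between neighbouring stages was 4.03 times the larger of their SDs from 6 to 11 hpf and 2.50 times from 11 to 24 hpf. On the share outside miR-430 these were 18.4 and 5.49. In the authors' RPM they were 2.99 and 10.5, and on the TMM scale 5.37 and 11.8, both scales described below. Which step is larger by this measure thus depends on the scale, and an SD of n = 2 is imprecise.

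**Figure D1:**
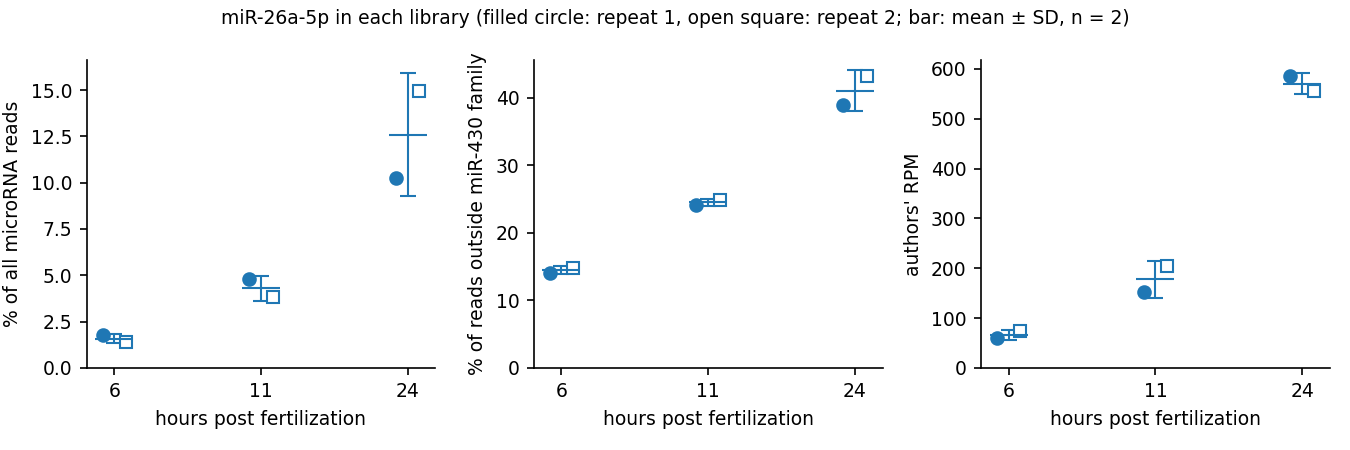
Levels of miR-26a-5p in the 6 libraries against hours post fertilization, as a percentage of microRNA reads (left), as a percentage of reads outside the miR-430 family (middle) and in the authors' RPM (right). Points are libraries and bars the mean ± SD (n = 2). On each scale both libraries of a stage lie above both of the stage before. The order of the repeats differs between RPM and both shares at 24 hpf. At 6 and 11 hpf it differs between RPM and the share of microRNA reads.

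Outside the miR-430 family the libraries of a stage lay closer together. miR-26a-5p held 14.1% (13.1% to 15.1%) and 14.8% (14.0% to 15.8%) of these reads at 6 hpf. At 11 hpf it held 24.1% (23.3% to 25.0%) and 24.9% (23.9% to 25.9%). At 24 hpf it held 38.9% (38.2% to 39.7%) and 43.2% (42.6% to 43.8%). At 6 and at 11 hpf the intervals overlapped, and at 24 hpf they did not. The SD was 3.70%, 2.22% and 7.34% of the mean at the 3 stages, against 15.7%, 15.8% and 26.3% for the share of all microRNA reads.

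By rank, miR-26a-5p was the fifth and the sixth most abundant microRNA in the 6 hpf libraries, the fourth in both 11 hpf libraries and the third in both 24 hpf libraries. Outside the miR-430 family it ranked 2 in every library of 6 and 11 hpf and 1 in both 24 hpf libraries.

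The authors' RPM refers each count to a library total of which microRNAs made up 0.317% to 0.571%. On this scale miR-26a-5p stood at 59.5 and 73.6 RPM at 6 hpf, 152 and 204 RPM at 11 hpf, and 585 and 555 RPM at 24 hpf. The 24 hpf libraries were close here, with an SD of 3.69% of the mean, and their order was the opposite of that in the shares. The last scale, TMM, sets each library by the bulk of its microRNAs. It gave TMM-scaled levels of 22003 and 25208 at 6 hpf, 43094 and 38560 at 11 hpf, and 83428 and 88871 at 24 hpf, in the unit of RPM of microRNA reads.

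The direction was common to the 4 scales and the size was not. From 6 to 24 hpf the mean of miR-26a-5p was 8.01-fold higher as a share of microRNA reads, 8.57-fold in RPM, 3.65-fold on the TMM scale and 2.84-fold as a share of the reads outside miR-430. From 6 to 11 hpf the folds in the same order were 2.74, 2.68, 1.73 and 1.69. From 11 to 24 hpf they were 2.92, 3.20, 2.11 and 1.67. Between single libraries of 6 and 24 hpf, the smallest fold was 2.62 (reads outside miR-430) and the largest was 10.7 (share of microRNA reads). The reads outside miR-430 include those of miR-26a-5p, at a mean of 41.1% at 24 hpf. This holds down the folds on that scale, which are not folds relative to the other microRNAs outside miR-430. In bulk libraries more miR-26a-5p per cell, less of the other RNA and a different mix of cells cannot be told apart.

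miR-26a-5p was a large part of the share gained outside the miR-430 family. The shares of a library have a fixed sum, so this gain mirrors a lower share of miR-430. Within that family the mean of miR-430i-5p was 16.4% at 6 hpf, 2.41% at 11 hpf and 2.44% at 24 hpf. For miR-430a-3p it was 48.6%, 51.5% and 47.2%, and for miR-430b-3p 22.2%, 27.6% and 18.9%. All reads outside that family went from 10.9% ± 2.11 (SD, n = 2) of microRNA reads at 6 hpf to 17.6% ± 3.16 at 11 hpf and 30.4% ± 5.82 at 24 hpf. Of the mean gain of 19.5 percentage points between 6 and 24 hpf, miR-26a-5p supplied 11.0 points, or 56.4%. It supplied 40.9% of the gain up to 11 hpf and 64.5% of the gain after it. The remaining microRNAs outside miR-430 together grew 1.91-fold between 6 and 24 hpf, from 9.33% ± 1.87 to 17.9% ± 2.52, against 8.01-fold for miR-26a-5p.

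**Figure D2:**
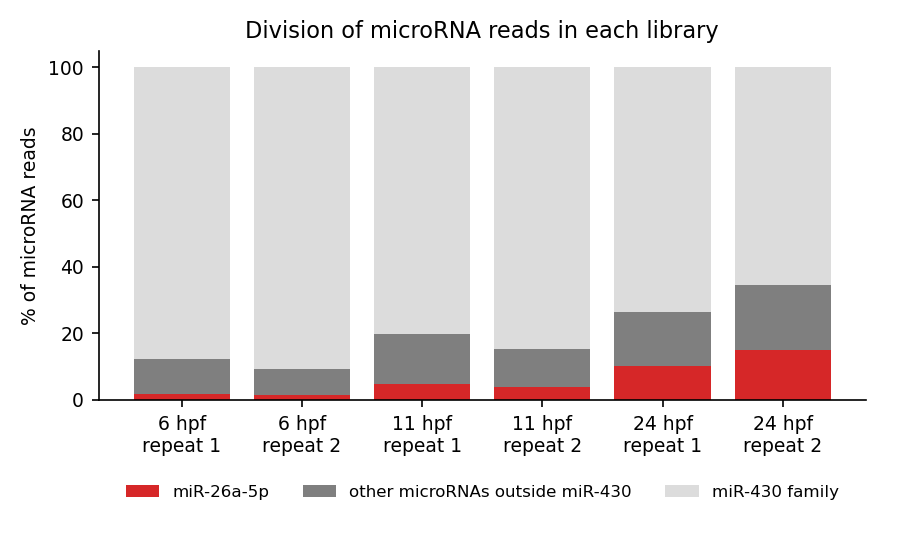
MicroRNA reads of each library in percent, divided into miR-26a-5p (red), other microRNAs outside the miR-430 family (dark grey) and the miR-430 family (light grey). The red part is 1.75% and 1.40% of the bars at 6 hpf and 10.2% and 14.9% of those at 24 hpf.

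A ratio to another microRNA of the same library needs no scaling. miR-103, whose genes lie in pantothenate kinase genes in mammals, had 48 and 60 reads at 6 hpf, 85 and 48 at 11 hpf, and 59 and 115 at 24 hpf. Reads of miR-26a-5p were 13.0 and 14.9 times those of miR-103 at 6 hpf, 25.5 and 38.4 times at 11 hpf, and 116 and 102 times at 24 hpf. No 2 stages overlapped in these ratios. Their means on the log2 scale were 3.80 ± 0.14 (SD, n = 2), 4.97 ± 0.42 and 6.77 ± 0.13. The log2 ratio was thus higher by 1.17 from 6 to 11 hpf and by 1.80 from 11 to 24 hpf, or 2.97 in all, which is 7.85-fold.

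miR-22a-3p, the other comparator, had 114 and 71 reads at 6 hpf, 42 and 59 at 11 hpf, and 79 and 188 at 24 hpf. Reads of miR-26a-5p were 5.47 and 12.6 times these at 6 hpf, 51.6 and 31.3 times at 11 hpf, and 86.7 and 62.7 times at 24 hpf. Again no stages overlapped, but the libraries of a stage lay farther apart than with miR-103, at a mean log2 ratio of 3.05 ± 0.85 (SD, n = 2), 5.33 ± 0.51 and 6.20 ± 0.33. Between 6 and 24 hpf this log2 ratio was higher by 3.15, or 8.89-fold. Without 6 hpf replicate 1 it was higher by 2.55, and without 6 hpf replicate 2 by 3.75. Here 2.28 of the difference lay before 11 hpf and 0.88 after it, the opposite division to that with miR-103. The stages of the larger and the smaller step therefore depend on the comparator.

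**Figure D3:**
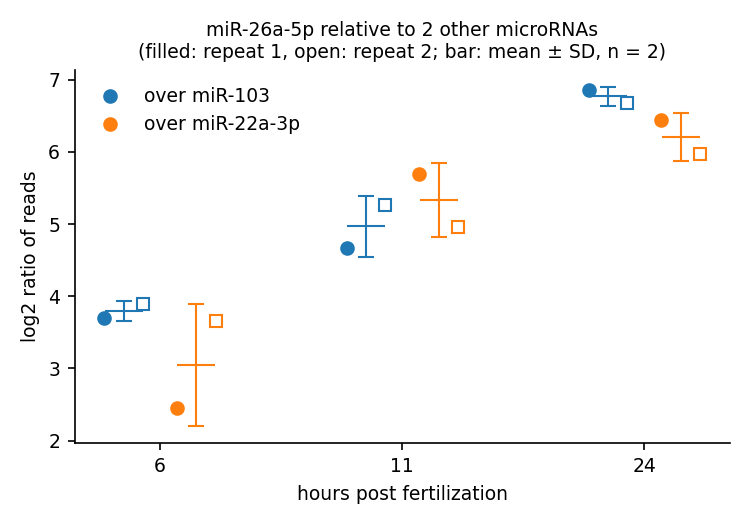
Log2 ratio of miR-26a-5p reads to those of miR-103 (blue) and miR-22a-3p (orange) in each library against hours post fertilization, with the mean ± SD (n = 2). With both comparators the 3 stages are apart, and the 6 hpf libraries over miR-22a-3p, at ratios of 5.47 and 12.6, are the farthest apart.

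The comparators were not steady on every scale. As a share of microRNA reads miR-103 was at 0.114% ± 0.029 (SD, n = 2) in 6 hpf libraries and 0.117% ± 0.041 in 24 hpf libraries. In RPM it was 4.76 ± 0.26 and 5.23 ± 0.27. The reads outside miR-430 include miR-26a-5p, at a mean of 14.5% at 6 hpf and 41.1% at 24 hpf. Any other share of them is therefore lowered by a higher share of miR-26a-5p. Of these reads miR-103 held 1.04% ± 0.060 at 6 hpf and 0.378% ± 0.061 at 24 hpf, without overlap. On the TMM scale its log2 difference between these stages was -1.09 (SE 0.40, edgeR adjusted p = 0.134), against 0.037 when scaled by library size and 0.13 by the authors' totals. Without 11 hpf replicate 1 it passed at the same difference of -1.09 (edgeR adjusted p = 0.041). miR-22a-3p differed by -1.34 (SE 0.50, edgeR adjusted p = 0.138), by -0.27 when scaled by library size and by -0.10 by the authors' totals. Neither passed in the other comparisons of stages. From 6 to 11 hpf, the larger step of the ratio to miR-22a-3p, that microRNA itself differed by -1.54 (SE 0.51, edgeR adjusted p = 0.282). For miR-103 this difference was -0.33 (SE 0.40).

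In the fit across all microRNAs (edgeR's quasi-likelihood test with TMM scaling), 69 of the 134 had enough reads to be tested, among them miR-26a-5p and miR-26a-3p. miR-26a-3p entered only through 1 library of 6 hpf and 1 of 11 hpf, and miR-26a-2-3p did not enter. The log2 difference of miR-26a-5p was 0.79 (SE 0.14) from 6 to 11 hpf, 1.08 (SE 0.14) from 11 to 24 hpf and 1.87 (SE 0.14) from 6 to 24 hpf. The median over the 69 was -0.08, -0.08 and -0.36, so that relative to it miR-26a-5p stood at 0.87, 1.16 and 2.23. No p-value is given for the members. As background, between 6 and 24 hpf 17.4% of the 69 were past an adjusted p of 0.05 in either direction and 8.7% upwards. From 6 to 11 hpf 5.8% were past it, 1.45% upwards, and from 11 to 24 hpf 0%. Both libraries of the later stage stood above both of the earlier one for 18.8% of the 69 from 6 to 11 hpf, 26.1% from 11 to 24 hpf and 31.9% from 6 to 24 hpf. Nothing is read from the place of miR-26a-5p among these, since it was chosen on such differences. By size its difference from 6 to 24 hpf ranked 20 of 69 from the top.

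A wider list of broadly expressed microRNAs held 19 listed names other than miR-26a, and 5 of them were tested: miR-103, miR-22a-3p, miR-101a, miR-130c-5p and miR-222a-3p. In edgeR's test 0 of 5 passed in each comparison of stages, beside the 5.8%, 0% and 17.4% of all tested microRNAs given above. At an unadjusted p under 0.05 there were 1, 0 and 0 of the 5, where 13%, 20.3% and 34.8% of all tested stood, and DESeq2 called 0, 0 and 1, the last being miR-222a-3p. Over all microRNAs with an adjusted p, DESeq2 called 10.1%, 4.35% and 34.5%. Without 11 hpf replicate 1, miR-101a, miR-103 and miR-222a-3p passed between 6 and 24 hpf, in a fit where 40.6% of all tested passed. Without 11 hpf replicate 2 miR-222a-3p alone passed, where 34.8% of all tested did. The log2 differences of the 5 between 6 and 24 hpf ran from -3.49 to 5.89, with 2 above 0 and 3 below. Those above 0, miR-101a (SE 1.17) and miR-222a-3p (SE 2.66), exceeded the 1.87 of miR-26a-5p. Both had at most 2 reads per library at 6 hpf, under the minimum count of 10. They could enter the test only through later libraries, so their direction was largely set by the filter. The median of the 5 was -1.09, the value of miR-103, beside -0.36 for all tested. The 5 thus had no common direction between 6 and 24 hpf, with the limit that the filter sets. From 6 to 11 hpf 2 were above 0 and 3 below, and from 11 to 24 hpf 4 and 1. miR-103 and miR-22a-3p, with at least 10 reads in every library, were both below 0 between 6 and 24 hpf.

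miR-222a-3p, a microRNA that represses the cell cycle inhibitor p27 in mammals, had 0 and 1 reads at 6 hpf, 31 and 0 at 11 hpf, and 117 and 81 at 24 hpf. Its log2 difference from 6 to 24 hpf was 5.89 (SE 2.66, edgeR adjusted p = 0.183). miR-130c-5p had 53 and 45 reads at 6 hpf, 0 and 11 at 11 hpf, and 0 and 36 at 24 hpf. From 6 to 11 hpf it differed by -3.75 (SE 2.52, edgeR adjusted p = 0.524). For both, 1 library of a pair had reads and the other had 0 at 11 hpf. This was also so for miR-130c-5p at 24 hpf and, with only 1 read, for miR-222a-3p at 6 hpf. miR-101a, the third of these, had 2 and 2 reads at 6 hpf, 1 and 12 at 11 hpf, and 22 and 33 at 24 hpf. From 11 to 24 hpf it differed by 0.93 (SE 1.09, edgeR adjusted p = 0.679).

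The 3p arms of miR-26a were scarce and seen early. miR-26a-2-3p had 33 reads in the first 6 hpf library and 0 in every other library. miR-26a-3p had 36 reads in the second 6 hpf library, 15 in the second 11 hpf library and 0 in the other four. The 6 hpf libraries thus held similar numbers of 3p reads under different names, and the 7 differing bases keep these names apart. Of the 134 listed microRNAs, 7 had 10 reads or more in 1 repeat and 0 in the other at 6 hpf. Among these 7 were miR-26a-2-3p and miR-26a-3p. At 11 hpf there were 20 such microRNAs and at 24 hpf 23, or 50 cases in all. Such unevenness was thus less frequent at 6 hpf than at the later stages.

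Taken over both names, 3p reads were 5.02% (3.48% to 6.98%) and 3.88% (2.73% to 5.33%) of miR-26a reads in the 6 hpf libraries. At 11 hpf they were 0 of 2168, which allows a share of up to 0.138%, and 15 of 1859, or 0.807% (0.452% to 1.33%). At 24 hpf they were 0 of 6852 and 0 of 11787, which allows up to 0.0438% and 0.0255%. The exact intervals for these counts of 0 reach higher, to 0.170% in the first 11 hpf library and to 0.0538% and 0.0313% at 24 hpf. Every later library lay below both 6 hpf libraries in the share of 3p reads over both names. Neither name alone set the stages apart, since each had 0 reads in 1 of the 6 hpf libraries. The 5p reads in the denominator are those on which miR-26a was chosen, so the share is a description as well. The count of 3p reads itself, 33 and 36 at 6 hpf, does not depend on them.

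miR-26b, with the same seed, was scarce. It had 0 reads in both 6 hpf libraries, which allows up to 0.481% and 0.336% of the reads with this seed. At 11 hpf it had 1 read in the first library and 0 in the second, which allows up to 0.163%. At 24 hpf it had 75 reads in the first library and 1 in the second. Of the reads with this seed it was 1.08% (0.853% to 1.36%) in the first 24 hpf library and 0.00848% (0.000215% to 0.0473%) in the second. The 24 hpf libraries differed here beyond counting error, and the higher value rests on 1 library.

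The microRNAs with a profile most like that of miR-26a-5p were found among the 29 others with at least 10 reads in every library. Likeness was the root mean square difference over the 6 libraries between log2 TMM-scaled levels, each centred on its own mean, and it is a description, since all share the same libraries and scaling. The nearest was miR-10b-5p, which lies in Hox clusters, at 0.45. It was followed by miR-20a-5p of the miR-17 cluster at 0.60, miR-21 at 0.65, the lin-4 homologue miR-125b-5p at 0.65 and miR-100-5p at 0.68. Next came miR-92a-3p at 0.71, with a log2 difference of only 0.21 (SE 0.14) from 6 to 24 hpf. Nearness on this measure therefore did not require a rise like that of miR-26a-5p. miR-103 was 15 in this order, at 1.24, and miR-22a-3p was 24, at 1.39.

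miR-10b-5p had 23 and 20 reads at 6 hpf, 54 and 41 at 11 hpf, and 89 and 234 at 24 hpf. Its log2 difference from 6 to 24 hpf on the TMM scale was 1.05 (SE 0.47), beside 1.87 for miR-26a-5p. miR-21 had 11 and 63 reads at 6 hpf, 114 and 66 at 11 hpf, and 394 and 674 at 24 hpf, a log2 difference of 2.18 (SE 0.80). The first 6 hpf library stood lowest, and miR-21 alone of the 5 differed by more than miR-26a-5p. For miR-20a-5p, miR-125b-5p and miR-100-5p the log2 differences were 1.33 (SE 0.66), 0.57 (SE 0.47) and 0.32 (SE 0.32). In reads, miR-26a-5p exceeded the most abundant of these, miR-100-5p with 1124 reads in the second 24 hpf library, in every library.

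**Figure D4:**
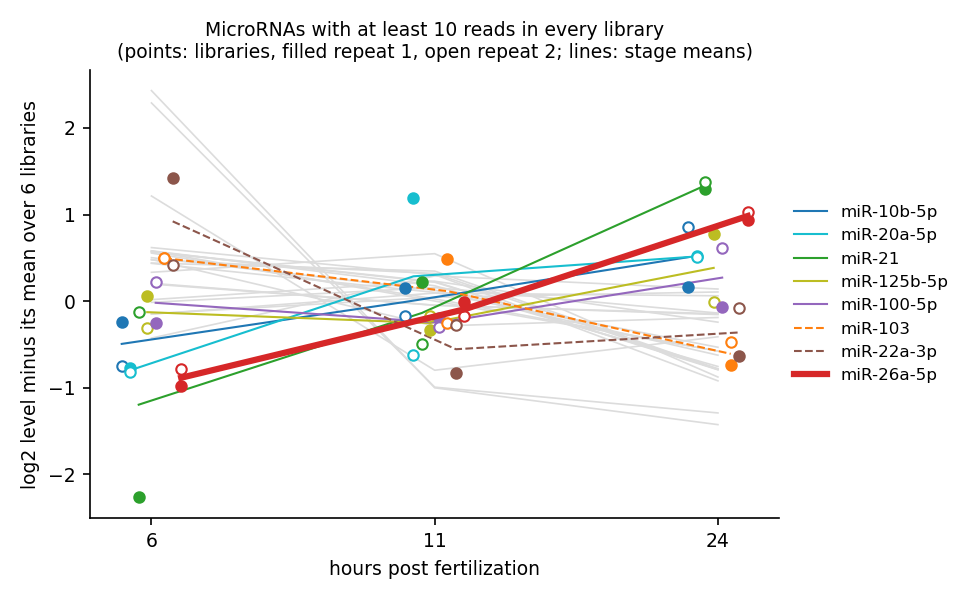
Log2 TMM-scaled level, minus its mean over the 6 libraries, against hours post fertilization for miR-26a-5p (red), the 5 nearest microRNAs (solid), miR-103 and miR-22a-3p (dashed) and the stage means of the other microRNAs with at least 10 reads in every library (grey). Points are libraries and lines join stage means; the red line climbs at both steps, and its libraries of a stage lie close together, while the first 6 hpf library of miR-21 lies far below the second.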

How the data were processed

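Small RNA libraries of picked primordial germ cells were made by a microscale method, per the labels' protocols, with 2 libraries at each of 3 stages. The submitters' processing notes name Bowtie 1.0.0-5 and the build danRer11, without a counting rule or a source of the microRNA names. The deposited counts are whole reads per mature microRNA with no sign of normalisation. The authors' RPM is each count times 1 constant per library. No chromosome positions are given, since the reference table is of another assembly.

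The members, lists and comparators were chosen with earlier results of these data known. The lists were named from general knowledge. Stages were compared in R 4.3.3 with edgeR 4.0.16 (quasi-likelihood, tool default, TMM, stage as the only term, all 6 libraries). filterByExpr with a minimum count of 10 kept 69 of 134 microRNAs. Benjamini-Hochberg adjustment ran over the 69, with calls below 0.05. The SE of a log2 difference is its size over the square root of F. TMM factors followed stage, at 0.794 and 0.554 at 6 hpf, 1.11 and 0.992 at 11 hpf, and 1.23 and 1.68 at 24 hpf. Log2 differences from 6 to 24 hpf are thus lower with TMM than with library size. Their median was -0.36 with TMM and 0.73 with library size. The floor for a count of 0 is 3 reads, which lies below the upper end of the exact interval for that count. Intervals are exact (SciPy 1.17.1), and profiles had 0.5 reads added. Named were the members, both comparators, sharers of a member's seed, the 5 nearest profiles and the 3 listed microRNAs of lowest p per comparison. The profile after the 5 nearest was added as a gauge of likeness. Alternatives were other scalings and filters, DESeq2 1.42.0, the replicate number as a term, the robust fit and each library left out. The scripts were tested on simulated data. Figures were drawn with matplotlib 3.10.9.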

Additional observations from a re-analysis of the deposited data

How the results depend on the processing

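All alternative settings refit the libraries in which miR-26a had been chosen for its rise, so a common sign is a description. The log2 difference of miR-26a-5p was above 0 in 15 of 15 alternative settings in each comparison of stages, and its size followed the scaling. Between 6 and 24 hpf it was 2.41 with RLE size factors, 3.00 with library size, 2.10 with the miR-430 family left out, 3.10 with the authors' totals, 1.98 without a filter, 2.69 with the stricter filter (a mean of 100 reads in a stage) and 2.41 with DESeq2. Relative to the median of the microRNAs tested in the same setting, it stood at 2.24 with RLE, 2.27 with library size, 1.76 with miR-430 left out and 2.22 with the authors' totals. Between 6 and 11 hpf it was 1.06 with RLE, 1.45 with library size, 1.01 without miR-430, 1.42 with the authors' totals, 1.35 with the stricter filter and 1.06 with DESeq2. Between 11 and 24 hpf it was 1.35 with RLE, 1.55 with library size and 1.68 with the authors' totals. It was 1.33 with the stricter filter and 1.35 with DESeq2. With 1 library left out it ran from 0.70 to 1.08, 1.03 to 1.37 and 1.77 to 2.33 for 6 to 11, 11 to 24 and 6 to 24 hpf. Where a stage kept 1 library, that library was assumed to vary like the others.

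The log2 ratio of mean shares, 1.45, 1.55 and 3.00 over all microRNA reads, was 0.76, 0.74 and 1.50 over the reads outside miR-430, and without single libraries ran from 1.28 to 1.62, 1.25 to 1.79 and 2.70 to 3.25. Relative to miR-103 the log2 difference ran from 0.88 to 1.47, 1.51 to 2.10 and 2.88 to 3.07 without single libraries, and relative to miR-22a-3p from 1.68 to 2.88, 0.51 to 1.24 and 2.55 to 3.75. Relative to the sum of both comparators it was 1.74 up to 11 hpf and 1.36 after it. The sign of the difference of miR-103 turned, without passing, to 0.33 and 0.24 between 6 and 11 hpf with library size and with the authors' totals, and to 0.037 and 0.13 between 6 and 24 hpf. That of miR-22a-3p between 11 and 24 hpf ran from -0.10 to 0.72 without single libraries.

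The count of changed microRNAs moved too. Between 6 and 11 hpf it was 4, against 1 without miR-430, 1 with the authors' totals, 7 with DESeq2 and 0 to 3 without single libraries. Between 11 and 24 hpf it was 0, against 8 with RLE, 3 with the authors' totals, 1 with the stricter filter and 3 with DESeq2. Between 6 and 24 hpf it was 12, against 19 with the authors' totals, 5 without a filter, 4 with the robust fit, 19 with DESeq2 and 0 to 28 without single libraries. With the replicate number as a block it was 4 between 6 and 24 hpf. The labels give no shared origin to repeats of one number, and the deviations of same-numbered libraries had correlations of 0.14, 0.10 and -0.21 over 69 microRNAs, so the numbers were not taken as pairs. With the block the difference of miR-26a-5p was 0.79, 1.08 and 1.87. Of the broadly expressed list, DESeq2 called 1 between 6 and 24 hpf, and leaving out single libraries gave 0 to 3. Of the 5 nearest profiles, all 5 were the same with library size, and 1 was with a minimum of 30 reads in every library, which by its construction leaves out the other four. The cause of the other changes was not tested. With 2 libraries per stage, precision is limited by their spread.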
